A study of Mus musculus with 13 samples.

Results

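Adipocytes are the lipid-storing cells of fat, and 10 genes they express strongly were followed across the lung transcriptome of this series: Adipoq, Lep, Retn, Cfd, Plin1, Plin4, Cidec, Fabp4, Lipe and Ucp1. The 10 genes were taken by symbol from a table of 20270 genes, all 10 were found in it, and 8 of them passed the filter on low counts (Lep and Ucp1 did not). Libraries came from the lower right lobe of the lung of 4 Control mice (numbered 3, 21, 24 and 26), 5 wildtype (WT) bleomycin mice (4, 2, 5, 4-B2 and 7) and 4 CB1R KO bleomycin mice (8, 9, 10 and 11). Control mice were wildtype without bleomycin, for which the methods name saline as vehicle. Both bleomycin groups received a single oropharyngeal dose of 1 U per kg, an agent that injures the lung and leads to fibrosis, and lungs were taken 14 days later. The wildtype mice were C57BL/6J males of 13 weeks, whereas the knockout mice lacked Cnr1, the gene of the cannabinoid receptor CB1R, in the whole body on the same background, and their age and sex are not stated separately. Knockout lungs free of bleomycin are not part of the comparisons, so the knockout is compared with WT only under bleomycin.

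White adipocytes keep triglyceride in 1 large lipid droplet coated by perilipins and CIDE proteins, release fatty acids from it by lipolysis, and secrete hormones called adipokines. Lung parenchyma holds few adipocytes, but fat lies at the hilum, around the heart and in the mediastinum, and it can stay attached to a piece of dissected lung. Some of the genes are not limited to adipocytes: Fabp4 is also made by endothelial cells and macrophages, and Lipe by many tissues.

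Cnr1 itself was counted in every library. It stood at 1.62 to 4.10 CPM (counts per 1e6, scaled by the TMM factors of edgeR) in Control, 3.46 to 6.97 CPM in WT bleomycin and 2.47 to 5.63 CPM in CB1R KO bleomycin, and its log2 difference between the 2 bleomycin groups was -0.53 ± 0.28 (SE, edgeR adjusted p = 0.367). Gene-level counts do not show whether the deleted part of Cnr1 is among those reads, so they do not check the labels, and the knockout libraries are named here as they are labelled. Depth was 14615904 to 16662580 estimated counts in 12 libraries and 53463884 in CB1R KO 11. P-values weigh the differences between groups against the spread between these libraries, each taken as 1 lobe of 1 mouse. WT bleomycin 4 and 4-B2 share the number 4 in their labels. What B2 marks is not stated, and they are counted here as separate mice.

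Promoter windows of 250 bases upstream of the start were read from RefSeq (GRCm38.p6, another build than the GRCm39 transcripts of the files) to show the letters upstream of the members. The table held 11 windows for 9 of the 10 genes, and Fabp4 was not in it. C/EBP factors drive adipocyte differentiation, and their core TTGCNNAA, searched on both strands, lay in 9.56% of all 32851 windows and in windows of 3 members, Lep, Plin1 and Cidec. The GC box GGGCGG, bound by Sp1 and common at widely active promoters, lay in 32.7% of all windows and in those of Lep and Lipe. A half-site of nuclear receptors, AGGTCA, lay in 14.0% of all windows and, among members, in that of Ucp1 alone. The TATA box TATAAA, in 12.4% of all windows, was in none of the 11. Capitals mark the C/EBP core or the GC box on either strand, and the shown set holds the 3 members with the C/EBP core beside Lipe, the member whose level varied least, which held 6 GC box matches, 2 of them overlapping, upstream of its first start and none upstream of its second.
Plin1 (chr7:79732777-79733026, minus strand): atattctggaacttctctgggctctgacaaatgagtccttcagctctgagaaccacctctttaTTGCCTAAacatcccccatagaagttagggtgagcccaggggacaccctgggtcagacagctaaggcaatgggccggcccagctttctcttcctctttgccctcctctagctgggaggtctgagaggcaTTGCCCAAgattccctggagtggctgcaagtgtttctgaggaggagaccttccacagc
Cidec, second start (chr6:113434765-113435014, minus strand): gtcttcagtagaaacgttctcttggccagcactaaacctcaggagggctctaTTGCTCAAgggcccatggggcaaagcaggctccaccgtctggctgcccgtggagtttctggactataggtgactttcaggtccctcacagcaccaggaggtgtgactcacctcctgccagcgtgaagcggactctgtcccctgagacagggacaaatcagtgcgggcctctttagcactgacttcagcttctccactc
Lep (chr6:29059971-29060220, plus strand): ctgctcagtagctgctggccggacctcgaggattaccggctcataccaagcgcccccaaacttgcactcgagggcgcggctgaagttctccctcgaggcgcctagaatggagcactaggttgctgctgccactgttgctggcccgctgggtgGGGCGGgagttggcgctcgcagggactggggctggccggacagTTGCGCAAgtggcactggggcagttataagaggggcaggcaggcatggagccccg
Lipe, first start (chr7:25395988-25396237, minus strand): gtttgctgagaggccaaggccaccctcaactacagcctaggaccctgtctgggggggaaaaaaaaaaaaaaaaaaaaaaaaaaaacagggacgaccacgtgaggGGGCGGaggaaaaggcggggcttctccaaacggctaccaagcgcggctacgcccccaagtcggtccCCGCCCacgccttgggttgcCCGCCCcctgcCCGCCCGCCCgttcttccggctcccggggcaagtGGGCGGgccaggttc
The letters in Plin1 began 187 and 58 bases before the start, that in Cidec 198 bases and that in Lep 55 bases. A match is a description of the sequence and not a bound site.

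Levels of the members varied together from library to library, and widely within each group. Adipoq, the adipokine adiponectin, stood at 12.2, 3.55, 2.24 and 15.3 CPM in Control 3, 21, 24 and 26. It stood at 7.28, 3.27, 1.56, 1.25 and 1.30 CPM in WT bleomycin 4, 2, 5, 4-B2 and 7, and at 2.68, 12.6, 3.603 and 12.5 CPM in CB1R KO 8, 9, 10 and 11. Control 3, Control 26, CB1R KO 9 and CB1R KO 11 were thus high, and every group overlapped every other. These 4 libraries were also the 4 highest for Lep, Retn, Cfd, Plin1, Plin4, Cidec and Fabp4. With Adipoq itself, which set the 4, that made 8 of the 10 members. Of the 15315 genes tested, which hold the matching members except Lep, 50 (0.326%) had the same 4 highest libraries. The exceptions were Lipe, in which CB1R KO 10 took the place of Control 26, and Ucp1. The pattern was noticed in the values and has no test.

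**Figure D1:**
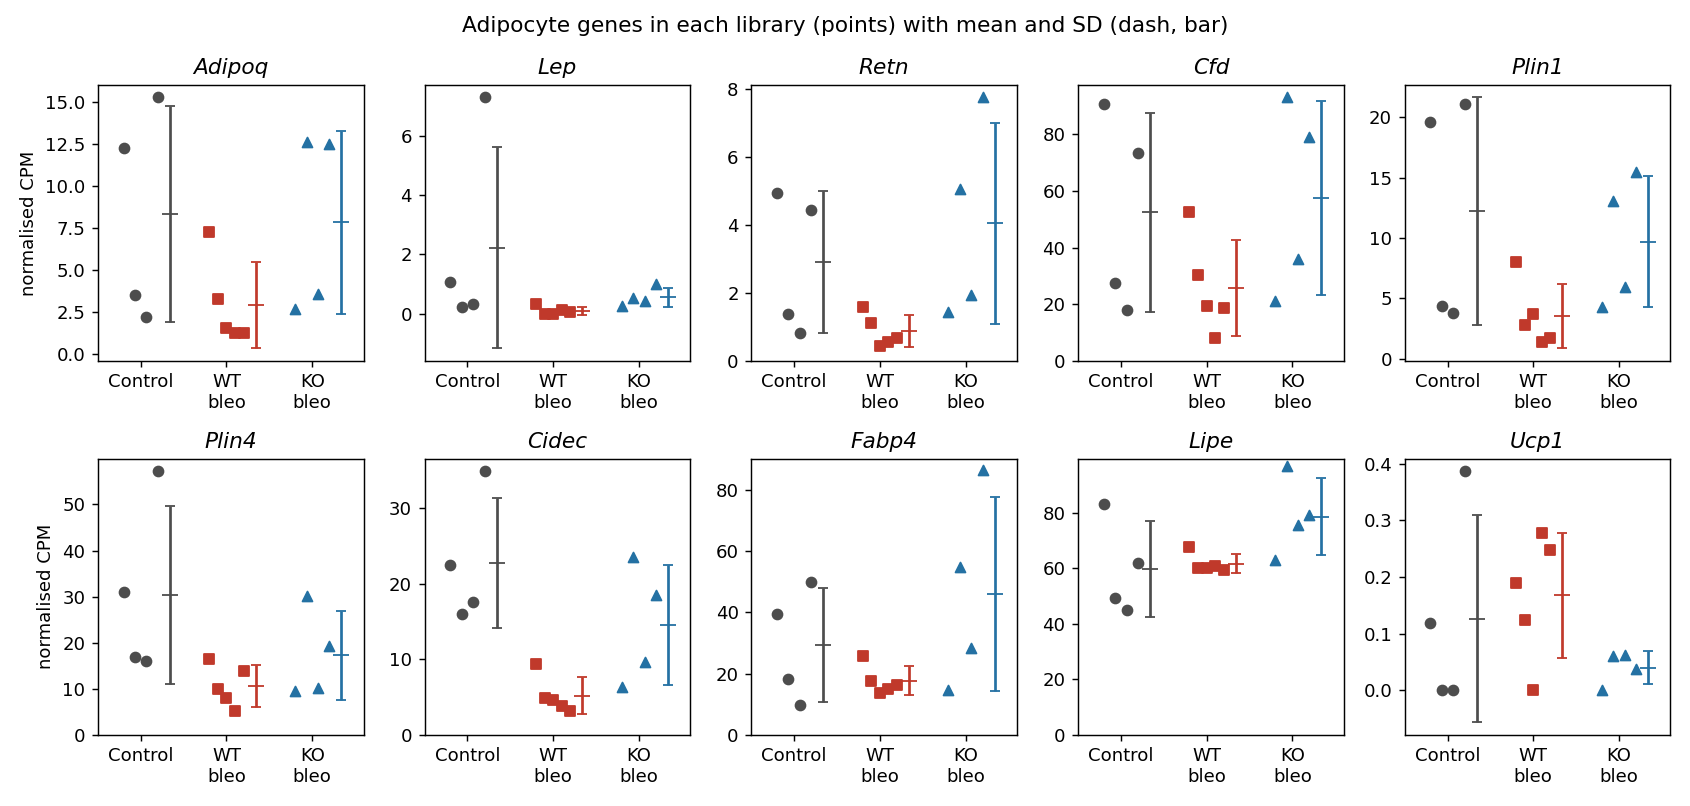
Normalised CPM (linear axes) of the 10 adipocyte genes in each library, by group (circles Control, squares WT bleomycin, triangles CB1R KO bleomycin), with the mean and SD beside each group; the SD bars of Lep and Ucp1 reach below 0, where no value lies. In 8 of the 10 panels the 4 highest points are Control 3, Control 26, CB1R KO 9 and CB1R KO 11.

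The within-group SD of log2 CPM was 1.17 for Adipoq, 1.06 for Plin1, 1.04 for Cfd, 0.99 for Retn, 0.88 for Fabp4, 0.77 for Plin4 and 0.66 for Cidec, against a median of 0.17 over all genes tested. These SDs lay between the 96.2 and 99.2 percentile of all genes. Lipe, with an SD of 0.26, was at the 70.8 percentile. Between the lowest and the highest of 13 libraries, Retn spanned 17.7-fold, Plin1 15.3-fold, Adipoq 12.3-fold and Lipe 2.16-fold.

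**Figure D2:**
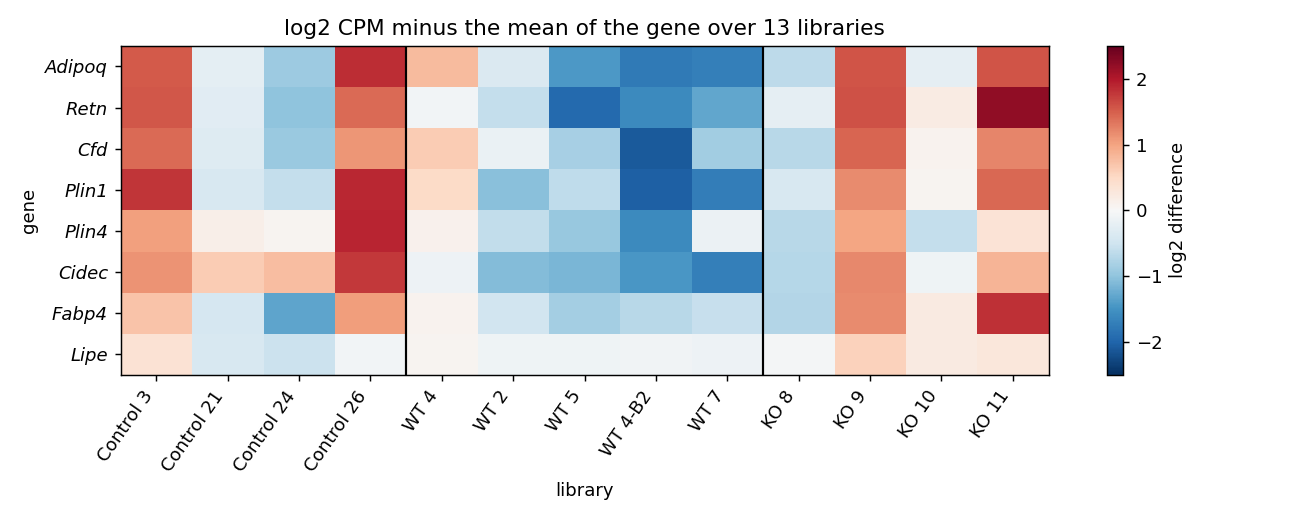
Difference of log2 CPM from the mean of the gene over 13 libraries for the 8 members that passed the filter (rows), by library (columns), with lines between Control, WT bleomycin and CB1R KO bleomycin. Control 3, Control 26, CB1R KO 9 and CB1R KO 11 are red in most rows, WT bleomycin 5, 4-B2 and 7 are mostly blue, and the row of Lipe is nearly flat.

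The secreted proteins came first among the members by role. Retn, which encodes the hormone resistin, stood at 4.93, 1.38, 0.83 and 4.45 CPM in the Control libraries, at 1.58, 1.11, 0.44, 0.55 and 0.68 CPM in WT bleomycin and at 1.44, 5.07, 1.93 and 7.75 CPM in CB1R KO bleomycin. In the WT bleomycin libraries 3 of 5 values lay below the whole Control range, so the groups overlapped. Retn was lower in WT bleomycin than in Control by a log2 fold change of -1.72 ± 0.61 (SE, edgeR adjusted p = 0.0311). CB1R KO bleomycin was 2.25 ± 0.59 above WT bleomycin on the log2 scale, the largest difference of a tested member in that comparison, with 3 of 4 libraries above every WT bleomycin library, and it missed the threshold (edgeR adjusted p = 0.0805, unadjusted p = 0.00189).

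Cfd encodes complement factor D, or adipsin, a protease of the alternative complement pathway. It stood at 90.8, 27.5, 17.9 and 73.5 CPM in Control, at 52.6, 30.2, 19.3, 7.96 and 18.6 CPM in WT bleomycin and at 21.1, 93.2, 36.1 and 79.2 CPM in CB1R KO bleomycin. The 3 groups overlapped, and only WT bleomycin 4-B2 lay below the Control range. The log2 fold change was -1.02 ± 0.55 for WT bleomycin against Control (SE, edgeR adjusted p = 0.140) and 1.16 ± 0.55 for CB1R KO against WT bleomycin (adjusted p = 0.297). Adipoq gave -1.499 ± 0.66 (adjusted p = 0.0737) and 1.44 ± 0.65 (adjusted p = 0.279), so neither gene passed in either comparison.

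Lep, the satiety hormone leptin that fat secretes in proportion to its mass, was near the limit of detection. It had 18, 4, 5 and 113 counts in Control, 5, 0, 0, 2 and 1 in WT bleomycin, and 4, 9, 7 and 54 in CB1R KO bleomycin, or 7.28 CPM in Control 26 and at most 1.07 CPM in any other library. A count of 0, as in WT bleomycin 2 and 5, allows up to 0.185 and 0.188 CPM (3 counts, counting error only). WT bleomycin held 8 counts in 5 libraries against 140 in 4 Control libraries, and 1 of 5 WT bleomycin values overlapped the Control range. With no filter on low counts, edgeR gave a log2 fold change of -4.36 ± 1.04 (SE, adjusted p = 0.00350) in a fit that called 37.1% of 19837 genes. Without Control 26 it was -2.35 (adjusted p = 0.0392), and with so few counts the size depends on how the fit treats values near 0. CB1R KO against WT bleomycin gave 2.52 ± 1.14 (adjusted p = 0.329).

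All 3 lipid droplet coat proteins passed the test between Control and WT bleomycin. Cidec encodes a protein that fuses lipid droplets into a single large one, and it stood at 22.5, 15.9, 17.6 and 34.9 CPM in Control, 9.38, 4.88, 4.62, 3.74 and 3.15 CPM in WT bleomycin, and 6.28, 23.5, 9.57 and 18.5 CPM in CB1R KO bleomycin. It was the 1 member of the 8 tested in which every WT bleomycin library lay below every Control library, which 18.8% of all genes tested did (40.3% did not overlap in either direction). Cidec fell by 2.14 ± 0.38 on the log2 scale in WT bleomycin (SE, edgeR adjusted p = 0.000371), 4.40-fold. In Control 21 and 24, where Adipoq was low, Cidec stayed at 15.9 and 17.6 CPM, above all WT bleomycin libraries. CB1R KO was 1.499 ± 0.38 above WT bleomycin on the log2 scale (edgeR adjusted p = 0.0740), with 3 of 4 libraries above all of WT bleomycin.

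Plin1, the perilipin that guards the droplet of white adipocytes against lipases, stood at 19.6, 4.33, 3.78 and 21.1 CPM in Control, 7.98, 2.78, 3.69, 1.38 and 1.73 CPM in WT bleomycin and 4.32, 13.03, 5.96 and 15.5 CPM in CB1R KO bleomycin. WT bleomycin 4 overlapped Control, and the other 4 lay below it. Plin1 fell by 1.79 ± 0.60 on the log2 scale in WT bleomycin (SE, edgeR adjusted p = 0.0227). Plin4, another perilipin, stood at 31.1, 16.9, 15.9 and 57.3 CPM in Control, 16.3, 10.0, 7.87, 5.05 and 13.8 CPM in WT bleomycin and 9.48, 30.1, 10.1 and 19.2 CPM in CB1R KO bleomycin. Here too 4 of 5 WT bleomycin libraries lay below the Control range, and Plin4 fell by 1.51 ± 0.43 on the log2 scale (SE, edgeR adjusted p = 0.00990). Against WT bleomycin, CB1R KO gave 1.49 ± 0.59 for Plin1 (adjusted p = 0.221) and 0.70 ± 0.44 for Plin4 (adjusted p = 0.437), 2 differences that did not pass.

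Fabp4, a carrier of fatty acids in the cytosol, stood at 39.5, 18.1, 9.67 and 49.9 CPM in Control, 25.7, 17.5, 13.5, 15.1 and 16.3 CPM in WT bleomycin and 14.59, 54.8, 28.5 and 86.5 CPM in CB1R KO bleomycin. All WT bleomycin values lay within the range of Control, and 3 of 4 CB1R KO values lay above WT bleomycin. Its log2 fold change was -0.73 ± 0.48 for WT bleomycin against Control (SE, edgeR adjusted p = 0.224) and 1.41 ± 0.47 for CB1R KO against WT bleomycin (adjusted p = 0.154). Lipe encodes hormone-sensitive lipase, an enzyme of lipolysis, and stood at 83.2, 49.2, 44.8 and 61.8 CPM in Control, 67.7, 60.04, 60.3, 60.8 and 59.5 CPM in WT bleomycin and 63.1, 96.8, 75.6 and 79.2 CPM in CB1R KO bleomycin. WT bleomycin libraries were close together for Lipe, and its log2 fold change against Control was 0.05 ± 0.15 (adjusted p = 0.83). CB1R KO was 0.35 ± 0.15 above WT bleomycin (adjusted p = 0.258).

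Ucp1, the uncoupling protein by which brown fat makes heat, was at the limit of detection, with 2, 0, 0 and 6 counts in Control, 3, 2, 0, 4 and 4 in WT bleomycin and 0, 1, 1 and 2 in CB1R KO bleomycin. Since 3 counts were worth 0.055 to 0.208 CPM in these libraries, no fold change is given. No group stood apart.

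By count, WT bleomycin against Control called 4 of the 8 members tested, Retn, Plin1, Plin4 and Cidec, all lower, where 48.9% of all 15315 genes were called and 23.9% were called lower. Taken in either direction, the share of members called was close to the background. The count rested on single libraries: it was 1 (Cidec) without Control 26, 2 (Plin4 and Cidec) without Control 3, without WT bleomycin 4-B2 or without WT bleomycin 7, 3 without WT bleomycin 5 (Retn was lost), 5 without Control 24 (with Adipoq) and 6 without WT bleomycin 4 (with Adipoq and Cfd). Cidec was called in 24 of 24 alternatives. In bulk RNA, fewer adipocytes (in the lung or in attached fat), less RNA per adipocyte and lower levels in other cells cannot be told apart.

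CB1R KO against WT bleomycin called 0 of the 8 members, where 0.979% of all genes were called by edgeR. At an unadjusted p under 0.05 it was 6 of 8, all but Cfd and Plin4, where 17% of all genes passed and 7.95% passed as higher. In each of the 8 the knockout was the higher group, against 50.1% of all genes. The members varied together from library to library, so these 8 are not 8 separate observations. DESeq2 called 2, Retn and Cidec, as edgeR did without CB1R KO 10, and edgeR called Cidec without WT bleomycin 4. The 2 comparisons share the WT bleomycin libraries, so a low value there moves both. No member separated the 2 groups without overlap, which 5.6% of all genes did (2.5% with the knockout higher and 3.1% lower). The 4 CB1R KO libraries were split, 9 and 11 being high and 8 and 10 low for Adipoq, Plin1 and Cfd.

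CB1R KO bleomycin against Control called 0 of the 8 members, where 35.4% of all genes were called, and every member overlapped, where 33.5% of all genes did not (15.8% being lower in the knockout in every library). At an unadjusted p under 0.05 it was Lipe alone, at 0.40 ± 0.16 on the log2 scale (SE, edgeR adjusted p = 0.0703), where 45.5% of all genes passed. DESeq2 also called 0, while limma on log2 TPM called Lipe, as did edgeR without Control 3 and without CB1R KO 8. The log2 fold change was -0.06 ± 0.65 for Adipoq, 0.14 ± 0.57 for Cfd, -0.64 ± 0.38 for Cidec and -0.81 ± 0.45 for Plin4. For Adipoq and Cfd the standard error was larger than the difference.

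**Figure D3:**
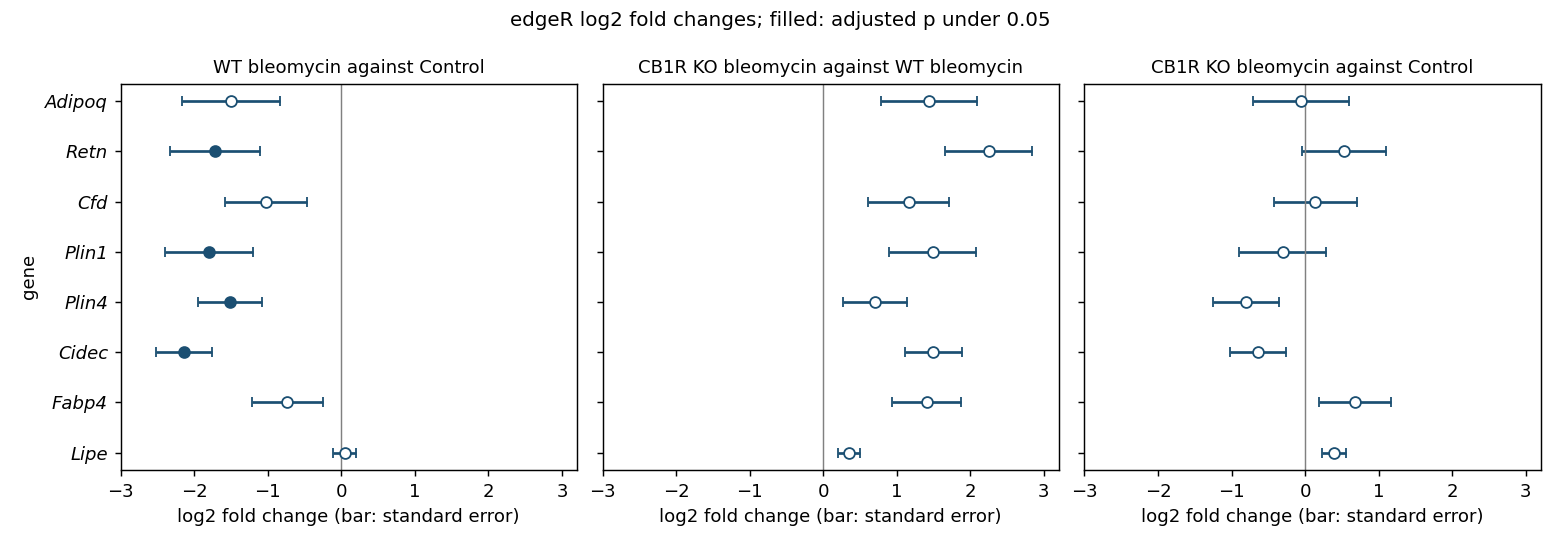
Log2 fold changes (points) and standard errors (bars) of the 8 tested members in 3 comparisons, from 1 edgeR fit over 13 libraries; filled points passed an adjusted p of 0.05. Retn, Plin1, Plin4 and Cidec are filled in WT bleomycin against Control, and no point is filled in the other panels.

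Compared per transcript length in TPM (transcript abundance scaled for length and library total), Cfd was the highest member by median in each group, at 99.4 in Control, 39.1 in WT bleomycin and 118 in CB1R KO bleomycin. In Control it was followed by Fabp4 (58.9), Lipe (33.4), Cidec (24.5), Adipoq (10.3), Plin1 (9.09), Plin4 (5.97), Retn (5.92), Lep (0.324) and Ucp1 (0.0593). Neighbours in this order overlapped over the Control libraries, Cidec and Adipoq included, whose ranges were 18.4 to 39.9 and 2.87 to 21.3 TPM. In WT bleomycin Lipe, at 37.8 TPM, stood above Fabp4, at 33.0 TPM, and Plin4 and Plin1 above Adipoq, at 2.02 TPM. In CB1R KO bleomycin the order of the first 5 was as in Control. TPM per CPM varied 2.12-fold between libraries for Plin1, and 1.08 to 1.38-fold for the other 8 members with at least 10 counts in some libraries.

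Adipoq was the reference for likeness. Over 13 libraries Pearson's r of log2 CPM with Adipoq was 0.958 for Plin1, 0.958 for Cfd, 0.947 for Retn, 0.883 for Fabp4, 0.844 for Cidec, 0.840 for Plin4 and 0.622 for Lipe. With group means removed it was 0.943, 0.947, 0.954, 0.897, 0.899, 0.842 and 0.764 in the same order. Spearman's rho ranged from 0.665 for Lipe to 0.945 for Plin1, and without Control 26 and CB1R KO 9, which lie farthest from the median of Adipoq, r ranged from 0.639 for Lipe to 0.951 for Cfd. These are descriptions with no test, and the genes of a library share its piece of tissue and its depth. The TPM ratio to Adipoq kept within 2.52-fold over the libraries for Plin1 and 2.64-fold for Retn, but spanned 8.79-fold for Cidec, 8.82-fold for Plin4 and 13.7-fold for Lipe. The ratio of Cidec to Adipoq was highest in Control 24, at 7.86, and lowest in CB1R KO 11, at 0.894.

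**Figure D4:**
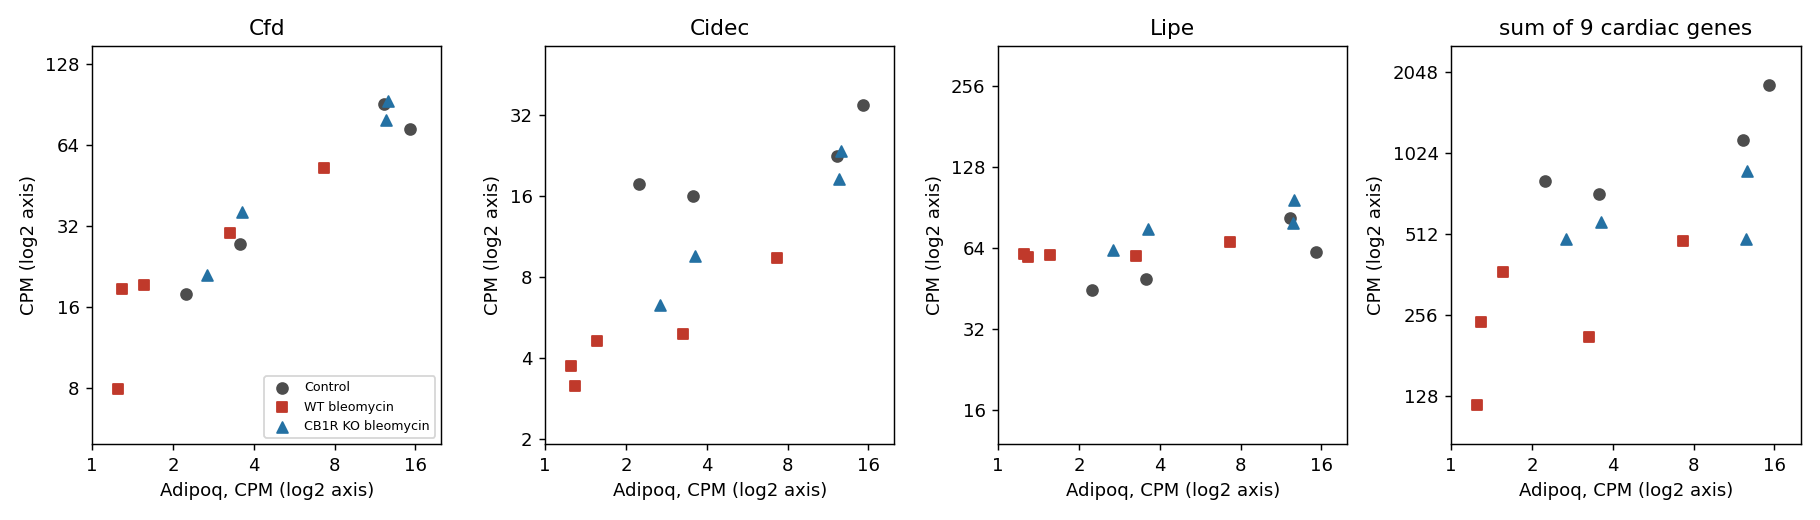
Cfd, Cidec, Lipe and the sum of 9 cardiac muscle genes (CPM) against Adipoq (CPM), both on log2 axes, 1 point a library (circles Control, squares WT bleomycin, triangles CB1R KO bleomycin). Every panel has the same horizontal span and the same, wider vertical span. Cfd follows Adipoq across the groups, Cidec of Control lies above that of WT bleomycin at like Adipoq, and Lipe is nearly flat.

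Among 14453 other genes with a mean of at least 1 CPM, the 10 with the highest r with Adipoq were Car3 (0.970), Cyp2e1 (0.919), A530016L24Rik (0.914), Aoc3 (0.906), Ccl4 (0.887), Thrsp (0.884), Tmem45b (0.883), Sucla2 (0.877), Pck1 (0.876) and Nfyb (0.866). Car3 encodes a carbonic anhydrase abundant in fat and muscle, and Pck1 the enzyme that feeds glycerol synthesis in adipocytes. Car3 stood at 76.6, 21.1, 16.2 and 117 CPM in Control, 42.2, 22.3, 14.1, 7.82 and 13.02 CPM in WT bleomycin, and 14.2, 74.7, 39.5 and 91.3 CPM in CB1R KO bleomycin. Its 4 highest libraries were those of Adipoq. Since these 10 genes were chosen by r with Adipoq over the same libraries, that likeness and the direction of the calls below are no separate finding. Of these genes Cyp2e1, A530016L24Rik, Thrsp and Tmem45b were called in WT bleomycin against Control, all lower, that is 4 of 10 where 48.9% of all genes were called and 23.9% were called lower, and Thrsp in CB1R KO against WT bleomycin. The slope of log2 CPM on that of Adipoq was 0.95 for Car3 and 1.05 for Thrsp, but 0.09 for Sucla2 and 0.07 for Nfyb, which varied little.

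Further genes of adipocyte biology stood in 9 lists of 86 genes, 82 of them tested. WT bleomycin against Control called 13 higher and 36 lower (59.8%), CB1R KO against WT bleomycin 4 higher and 0 lower (4.88%), and CB1R KO bleomycin against Control 12 higher and 18 lower (36.6%), where 48.9%, 0.979% and 35.4% of all genes were called. The last share was close to that of all genes. In WT bleomycin against Control, the comparison of the counts by list given next, 23.9% of all genes were called lower and 25% higher. The median log2 fold change over the 82 was -0.25, 0.21 and -0.12, against -0.01, 0.00 and -0.01 over all genes tested. The 4 genes called in CB1R KO against WT bleomycin were Thrsp, G0s2, Vldlr and Fitm2, but that comparison called between 1 and 653 of all genes when 1 library was left out.

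Of the other white adipocyte-enriched genes, 3 of 10 were lower in WT bleomycin and 0 higher: Adrb3, the receptor through which catecholamines start lipolysis (log2 fold change -1.75 ± 0.21), Trarg1, a partner of the glucose transporter GLUT4 (-0.98 ± 0.20), and Cyp2e1, a cytochrome P450 (-1.40 ± 0.42). Adrb3 stood at 18.7, 14.5, 16.1 and 18.8 CPM in Control and at 2.70 to 7.22 CPM in WT bleomycin, without the split of the Control libraries that Adipoq showed. In CB1R KO it was 7.52 to 10.9 CPM, above all WT bleomycin and below all Control libraries, and was highest in libraries 11 and 8.

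Adipogenic transcription factors changed in part, with 1 of 8 higher and 2 lower in WT bleomycin against Control. Klf15, a factor of metabolic genes that glucocorticoids induce, fell by 1.98 ± 0.34 on the log2 scale, and Srebf1, which drives lipid synthesis, fell by 0.19 ± 0.06. Cebpb, an early factor of adipogenesis and of inflammation, rose by 0.79 ± 0.22. Pparg, the master factor of adipocytes, stood at 12.6 to 17.2 CPM in Control, 10.0 to 15.1 in WT bleomycin and 13.3 to 18.6 in CB1R KO, groups that overlapped. Other lipid droplet proteins went both ways, with 3 of 8 higher and 3 lower. Plin2, the perilipin of most non-fat cells, rose by 0.63 ± 0.10, from 89.8 to 125 CPM in Control to 152 to 165 CPM in WT bleomycin, where Plin1 and Plin4 fell. Fitm2, which helps droplets bud, fell by 0.52 ± 0.07, and Hilpda, an inhibitor of lipolysis, fell by 0.996 ± 0.21. Fitm2 was then 0.33 ± 0.07 higher in CB1R KO than in WT bleomycin (edgeR adjusted p = 0.0416).

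Lipolysis genes were lower in 4 of 9 and higher in 1 in WT bleomycin. G0s2, the inhibitor of the lipase ATGL, stood at 68.7, 52.0, 68.8 and 85.0 CPM in Control, 17.7, 18.4, 20.4, 12.6 and 20.9 CPM in WT bleomycin and 38.8, 35.6, 22.7 and 29.9 CPM in CB1R KO bleomycin. The 3 groups did not overlap: G0s2 fell by 1.93 ± 0.17 on the log2 scale in WT bleomycin (edgeR adjusted p = 9.34e-07), and it was 0.81 ± 0.17 higher in CB1R KO than in WT bleomycin (adjusted p = 0.0416). Its highest knockout library was 8, in which Adipoq was lowest among the knockouts. Adrb1, a beta-adrenergic receptor, fell by 1.01 ± 0.15 on the log2 scale.

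Fatty acid uptake genes were split, with 3 of 8 higher and 4 lower in WT bleomycin. Lpl, the lipase that frees fatty acids from lipoproteins, rose by 0.94 ± 0.13, while Cd36, a fatty acid transporter, fell by 0.45 ± 0.08 and Vldlr, a lipoprotein receptor, by 0.78 ± 0.10. Vldlr was 0.45 ± 0.10 higher in CB1R KO than in WT bleomycin (edgeR adjusted p = 0.0480). Fatty acid and triglyceride synthesis had 3 of 15 higher and 6 lower, with Acsl1, which activates fatty acids, down by 0.90 ± 0.12, Dgat2, which completes triglyceride, by 1.47 ± 0.23, and Lpin1, which makes diacylglycerol, by 0.76 ± 0.12. In CB1R KO against WT bleomycin 15 of 15 differences of this list were above 0 and 1 passed.

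That gene was Thrsp, a regulator of lipogenesis abundant in fat, and it stood at 18.7, 6.31, 4.29 and 15.9 CPM in Control, 3.74, 2.47, 2.19, 1.59 and 0.926 CPM in WT bleomycin and 4.71, 16.2, 9.63 and 36.5 CPM in CB1R KO bleomycin. Every knockout and every Control library lay above every WT bleomycin library, and CB1R KO 11 was highest. Thrsp fell by 2.37 ± 0.59 on the log2 scale in WT bleomycin (SE, edgeR adjusted p = 0.00417) and was 2.97 ± 0.58 higher in CB1R KO than in WT bleomycin (adjusted p = 0.0314).

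Insulin response genes were lower in 7 of 9 and higher in 0, among them Cav1, the caveolin of fat and endothelium (fell by 0.93 ± 0.12), and Irs1, an insulin receptor substrate (fell by 0.95 ± 0.19). Of the 7 receptors of the adipokines 1 was higher and 1 lower. C3ar1, the receptor of complement C3a carried by myeloid cells, rose by 2.30 ± 0.24, and Lepr, the leptin receptor, fell by 0.96 ± 0.18, from 93.5 to 155 CPM in Control to 46.6 to 87.6 CPM in WT bleomycin. Cap1, a reported receptor of resistin, gave 0.16 ± 0.07 and did not pass (edgeR adjusted p = 0.0769).

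Brown and beige adipocyte genes were tested in 8 of 12 cases, the brown markers Elovl3, Lhx8, Zic1 and Otop1 being too low, at most 0.594 CPM in any library. Of the 8, 6 were lower and 1 higher in WT bleomycin. Dio2, which activates thyroid hormone, rose by 3.06 ± 0.36, from 0.576 to 1.66 CPM in Control to 4.85 to 9.50 CPM in WT bleomycin. Cox8b and Cox7a1, subunits of cytochrome oxidase shared by brown fat, heart and muscle, gave log2 fold changes of -2.31 ± 0.38 and -1.82 ± 0.30. Cox8b was highest in Control 26, Control 3 and CB1R KO 9, at 7.47, 5.05 and 3.86 CPM, the 3 libraries that were also highest for the cardiac genes given next.

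**Figure D5:**
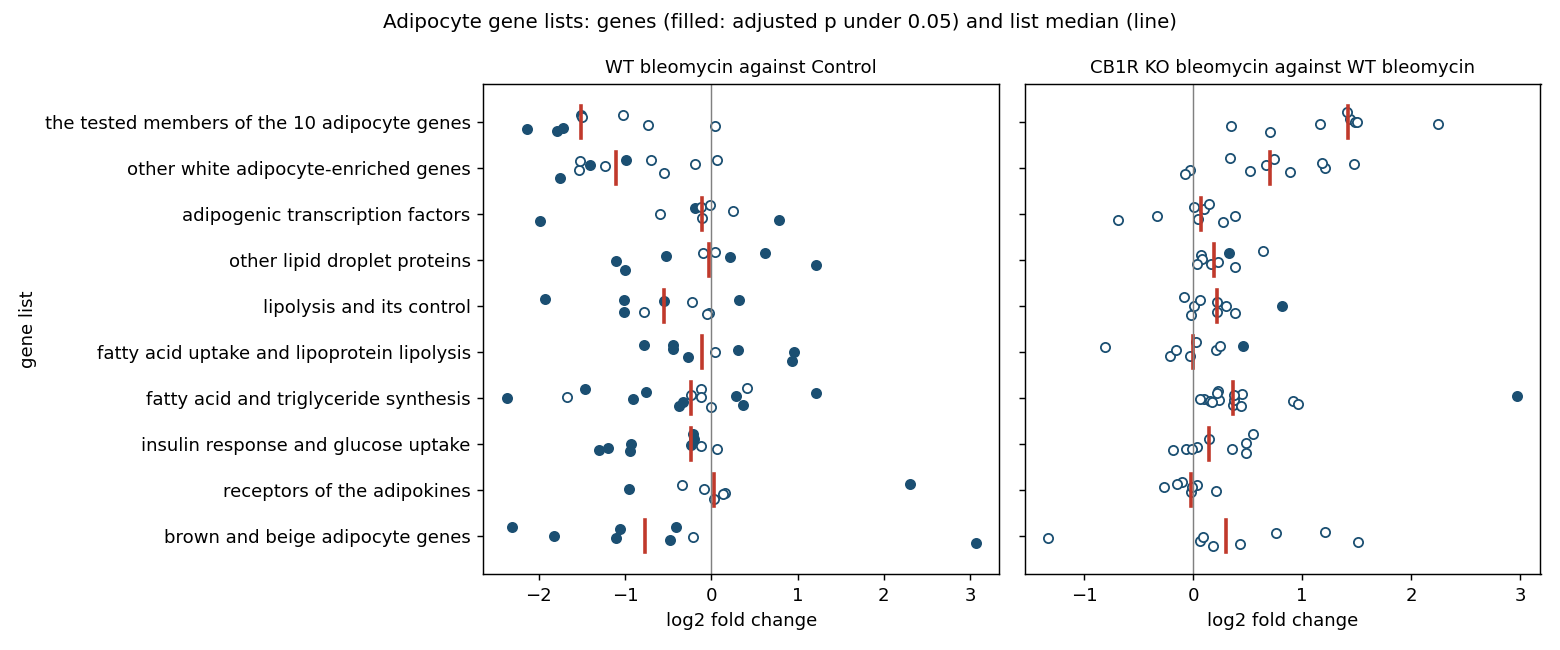
Log2 fold changes of single genes (points, filled at an adjusted p under 0.05) and list medians (red lines) for the members and 9 lists of adipocyte biology, in WT bleomycin against Control and in CB1R KO against WT bleomycin (vertical jitter has no meaning). The members and the white adipocyte-enriched genes have the medians farthest from 0 in both panels, and only Thrsp, G0s2, Vldlr and Fitm2 are filled on the right.

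Markers of other tissues were read beside the members, and they differed in how far they went with them. Muscle sleeves of mouse pulmonary veins express cardiac muscle genes, and the tissue that supplied these reads here was not tested. The 9 cardiac muscle genes were lower in 9 of 9 cases in WT bleomycin against Control (median log2 fold change -1.97). Here and for the marker counts below, 23.9% of all genes were called lower in that comparison and 25% higher. In CB1R KO against WT bleomycin, 0.359% of all genes were called higher. There 9 of 9 cardiac genes were above 0 (median 1.08), against 50.1% of all genes, with 0 called by edgeR. At an unadjusted p under 0.05 it was 7, where 17% of all genes passed and 7.95% passed as higher. The 9 genes were read in the same libraries and are not 9 separate observations. The summed level of the 9 cardiac genes was 1140, 718, 807 and 1827 CPM in Control, 481, 211, 368, 118 and 240 CPM in WT bleomycin, and 489, 873, 567 and 490 CPM in CB1R KO 8, 9, 10 and 11, and none of the 9 was at 0 in any library. Control 26, Control 3 and CB1R KO 9 had the 3 highest cardiac sums and were among the 4 highest libraries for Adipoq, whereas CB1R KO 11, also among those 4, was low in its group for cardiac genes. The part of attached tissue in the differences of the members was not tested.

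Skeletal muscle markers summed to 16.0 to 36.2 CPM in Control, 4.98 to 12.7 CPM in WT bleomycin and 10.1 to 17.1 CPM in CB1R KO, with Acta1, Tnnc2 and Myh4 at 0 in 2, 7 and 7 libraries. Ckm reached the highest level of this list, 24.1 CPM, while Acta1, Tnnc2, Myh4 and Myh1 stayed at or below 0.927 CPM. Thymocyte markers summed to 6.91 to 19.0 CPM over the 13 libraries, with Rag1, Ptcra and Arpp21 at 0 in 6, 4 and 7. B cell markers were lower in 7 of 8 cases in WT bleomycin against Control (233 to 567 CPM against 91.6 to 246 CPM, and 165 to 219 CPM in CB1R KO). Adipose stromal cell markers, which lung fibroblasts share, summed to 997 to 1101, 1061 to 1172 and 1089 to 1272 CPM in the 3 groups in this order, and nerve sheath markers to 921 to 950, 660 to 783 and 678 to 889 CPM.

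Of the resident lung cells, lipofibroblast and alveolar fibroblast markers, which mark fibroblasts that hold lipid droplets, were lower in 9 of 10 cases in WT bleomycin (4911 to 5779 CPM in Control, 2106 to 2868 CPM in WT bleomycin, 2623 to 4121 CPM in CB1R KO). In CB1R KO against WT bleomycin 10 of 10 were above 0 and 2, Inmt and Slc7a10, were called higher. Type II cell markers were lower in 6 of 8 cases in WT bleomycin against Control and higher in 3 of 8 in CB1R KO against WT bleomycin (19100 to 22640, 12010 to 13690 and 13940 to 21850 CPM in Control, WT bleomycin and CB1R KO). Capillary endothelial markers were lower in 8 of 10 in WT bleomycin (5120 to 5846, 3462 to 3852 and 3792 to 4272 CPM in the same order). Mesothelial markers were lower in 6 of 9 cases and higher in 1 (324 to 411, 246 to 356 and 245 to 320 CPM), and alveolar macrophage markers lower in 3 of 10 and higher in 3 (685 to 2016, 961 to 1472 and 861 to 1463 CPM). None of these markers was at 0 in any library, and the cells that supplied the members, Fabp4 and Lipe included, were not tested.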

How the data were processed

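Per the labels and methods, oligo(dT)-selected RNA was made into NEBNext Ultra II libraries and read as paired ends on an Illumina HiSeq. The authors quantified them with Kallisto (version not given in the sources used here; GRCm39, Ensembl release 105) and summed protein-coding transcripts per gene symbol. The deposited tables hold estimated counts, not normalized (70.2% not whole), and TPM; the single-sample files repeat them. The TPM table has 1 column that matches no sample, not used.

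From these, rounded counts went through filterByExpr, TMM scaling and the edgeR 4.0.16 quasi-likelihood test (under R 4.3.3), in 1 fit of 3 groups over 13 libraries without covariates. Benjamini-Hochberg adjustment covered 15315 genes, at 0.05, and the SE is the log2 fold change divided by the root of F. Log2 CPM used a prior count of 2. With at least 14615904 counts in every library, the median SE was 0.11 to 0.12 (log2).

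On simulated data 189 of 198 changed genes were recovered with 5 false calls among 15176 genes for WT bleomycin against Control, and 186 of 200 with 7 among 15192 for CB1R KO against WT bleomycin. These counts cover all changed genes together and are not split by the size of the change. They do not show how often differences as small as those of uncalled members would be recovered. Examples are Fabp4 in WT bleomycin against Control (log2 fold change -0.73) and Lipe in CB1R KO against WT bleomycin (0.35). The simulation for WT bleomycin against Control held 198 changed genes, whereas 7492 were called in the data. Recovery with so many changed genes was not tested. Recovery of genes that vary as widely within groups as most members do was not tested either.

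Named genes were the 10 members; from each of 9 pathway lists, every gene called in CB1R KO against WT bleomycin and up to 3 with the lowest p in WT bleomycin against Control; the 10 others most correlated with Adipoq; and defining markers of 11 cell types (cardiac and skeletal muscle, B cell, thymocyte, adipose stromal cell, nerve sheath, lipofibroblast, type II cell, capillary endothelial, mesothelial, alveolar macrophage). Of the genes this rule selects, 2 are not reported here. Cnr1, Pparg and the per-library values of some list genes were added. Members and lists were chosen with earlier results of these data known. Alternatives were other filters, RLE and upper-quartile scaling, DESeq2 1.42.0, limma 3.58.1 on log2(TPM + 1) and log2(TPM + 0.1), 2-group fits, label style, and each library left out. Promoter motifs and plots used Python 3.11.15, pandas 2.3.3 and matplotlib 3.10.9.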

Additional observations from a re-analysis of the deposited data

Results flagged for a closer look

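Of 30 groups of libraries tested (10 genes in 3 groups), 1 held a library far from the others: Lipe in WT bleomycin, where WT bleomycin 4, at 67.7 CPM, lay above the next library, at 60.8 CPM, by a gap of 0.827 of the whole range of the group on the scale of log2(CPM + 0.1). Chance flags about 1 in 20 groups. WT bleomycin 4 was also the highest of its group for Adipoq, Lep, Retn, Cfd, Plin1, Plin4, Cidec and Fabp4, without a gap of that size in those genes.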

How the results depend on the processing

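The numbers of genes called in WT bleomycin against Control (7492) and in CB1R KO bleomycin against Control (5415) stayed within 1.5 times under every alternative. In CB1R KO against WT bleomycin edgeR called 150 genes, DESeq2 640, edgeR on 2 groups 88, limma on log2(TPM + 0.1) 93, a fit with a batch term for label style 41, and the libraries with lower-case labels alone 6. Capital letters stand in the labels of Control 26, WT bleomycin 4-B2 and WT bleomycin 7, with no knockout among them, and what they mark is not stated. With 1 library left out it was between 1 and 653: 1 without CB1R KO 9, 3 without CB1R KO 11, 9 without CB1R KO 8, 653 without CB1R KO 10, 24, 30, 35 and 62 without WT bleomycin 5, 4-B2, 7 and 2, 230 without WT bleomycin 4 and 85 without Control 24. The cause was not tested. Members called in WT bleomycin against Control were 2 with limma (Plin4 and Cidec), 3 of 7 with at least 10 counts in every library, which left Retn out, and 1 (Cidec) with lower-case labels alone.

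Some values changed sign. For CB1R KO bleomycin against Control, Adipoq gave a log2 fold change of 0.12 and 0.15 with limma at pseudocounts of 1 and 0.1 and 0.41 with lower-case labels alone, and -0.39 to 0.40 with 1 library left out. Plin1 gave 0.10 with lower-case labels alone and -0.640 to 0.0894 with 1 library left out, Cfd -0.18 to 0.55, Retn -0.0317 to 0.92, and Lep without filter, at -1.84 ± 0.84 (SE) over all libraries, -2.39 to 0.14, the last without Control 26. Lipe in WT bleomycin against Control gave -0.0704 to 0.25 with 1 library left out. Every other log2 fold change of a member kept its direction in the alternatives run. Thinning CB1R KO 11, and fits of Lep without filter, were chosen after the data were seen. Depth limits Lep and Ucp1. No paired analysis was possible because the groups share fewer than 2 replicate numbers in the labels.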
